A study of Mus musculus with 12 samples.

Results

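Islets of mice that overexpress a microRNA in their β-cells were examined for 10 imprinted genes: H19, Igf2, Dlk1, Meg3, Grb10, Cdkn1c, Peg3, Plagl1, Mest and Nnat. They were chosen by name, and each was found in the count table through the Ensembl gene ID paired with its symbol. All 10 were among the 37991 genes of the table, and all 10 passed the filter on low counts that left 15961 genes for testing, H19 on its 2w libraries. Bulk RNA-seq had been performed on pancreatic islets of male C57BL/6 mice at 2 weeks (2w) and 12 weeks (12w) of age. Tg7 mice carry a transgene that overexpresses miR-7a2 specifically in β-cells and are a model of β-cell dedifferentiation, normoglycaemic at 2w and hyperglycaemic at 12w, and the controls were wild-type (Wt) littermates. The 4 groups were therefore Wt 2w, Tg7 2w, Wt 12w and Tg7 12w, with 3 libraries each, and each library came from the islets of at least 3 pooled animals. The 12w Wt libraries carry the numbers 1, 2 and 4. No source used here names the promoter of the transgene or says that the pools were of separate litters, so the p-values measure the spread between these pools.

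Imprinted genes are expressed mainly from the maternal or the paternal chromosome, according to DNA methylation laid down in the egg or sperm at imprinting control regions, and many lie in clusters that share such a region. Several are known as regulators of fetal and early postnatal growth, and many are expressed at high levels in young tissue and fall as organs mature. Among the genes studied, H19, Meg3, Grb10 and Cdkn1c are expressed mainly from the maternal copy, and Igf2, Dlk1, Peg3, Plagl1, Mest and Nnat from the paternal copy. The counts sum both parental copies, so loss of imprinting was not measured.

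Library totals ranged from 11610697 to 17515758 counts, and reads of the insulin genes Ins1 and Ins2 took between 1.84% and 30.0% of them. Levels are given as CPM (counts per 1e6 counts of the library), scaled with edgeR's TMM factors (0.684 to 1.19), which correct for such dominant genes, and differences as log2 fold changes with their standard error (SE). Wt 12w replicate 4 stood apart from the other Wt 12w libraries, with an insulin share of 14.8% against 30.0% and 27.0%, and results that turn on it are given with and without it. A gene was called when the adjusted p of edgeR's quasi-likelihood test, corrected over all genes tested, was below 0.05.

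Because the manipulated molecule is a microRNA, its sequence and the matches to it in the transcripts are shown first. A microRNA recognises its targets mainly through its seed, bases 2 to 8, which are in capitals in the mature sequence from RefSeq (GRCm38.p6).

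mmu-miR-7a-5p: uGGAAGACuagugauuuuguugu

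The complement of this seed, GTCTTCC, was searched on the sense strand. The windows were the 3′ UTRs of all annotated coding transcripts of each protein-coding member and the exons of all H19 and Meg3 transcripts. The seed match occurred 1 time in Grb10 and 3 times in Meg3, and it was absent from these windows in the other 8 genes. The match in Grb10 lies in the 3′ UTR on the minus strand at chr11:11830824-11830830, and those in Meg3 lie in exons on the plus strand at chr12:110781947-110781953, chr12:110787698-110787704 and chr12:110804214-110804220 (all mm9). They are printed with their flanks and with the match in capitals, since among the 10 genes these 2 alone held the letters in the windows searched.

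Grb10, 3′ UTR: tagatgttttGTCTTCCcctttctgca
Meg3, match 1, extended by an A after the seed match: gctcacaccaGTCTTCCaggaccacct
Meg3, match 2: ggcctgtcgcGTCTTCCtgtgccattt
Meg3, match 3: cttagctctaGTCTTCCcatgcacctc

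Of 20007 protein-coding genes, 2241 (11.2%) had such a match in their longest 3′ UTR, the only one searched for this share. The longest Meg3 window was 14548 bases long, against 2955 for the longest of Grb10. A match is a description of the letters and not a measured target.

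The genes differed in direction. Against Wt, 3 of the 10 were called in Tg7 islets at 2w, H19 and Igf2 higher and Nnat lower. At 12w 5 were called, Dlk1 and Igf2 higher and Nnat, Grb10 and Mest lower. Over all genes tested, 10.6% were called at 2w, 6.07% higher and 4.55% lower, and 23.6% at 12w, 12.5% higher and 11.2% lower. The median log2 fold change of the 10 was −0.01 at 2w and −0.09 at 12w, where the medians over all genes were 0.03 and −0.01. Without Wt 12w replicate 4 the counts were 4, with Dlk1 added among those higher, and 5.

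**Figure D1:**
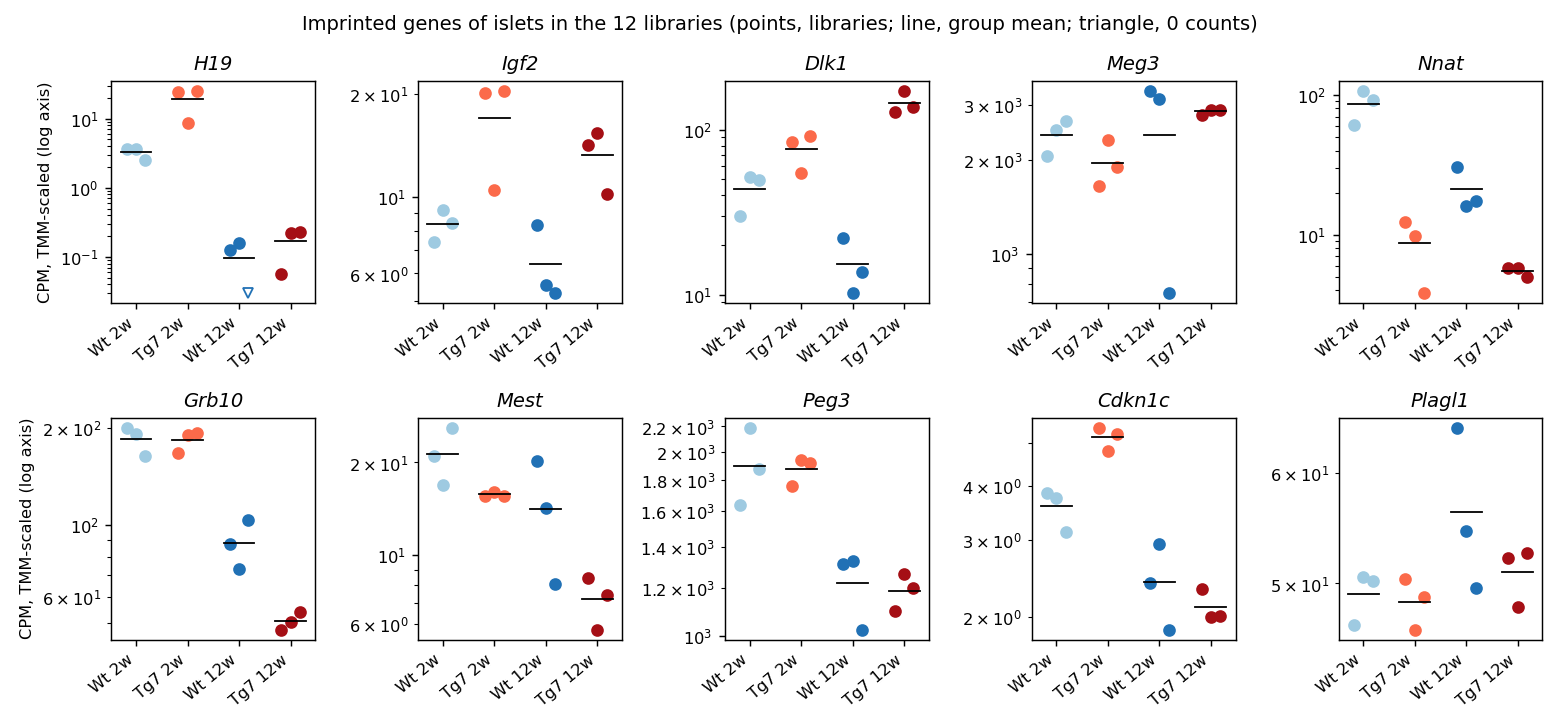
Level of each imprinted gene in each of the 12 libraries (vertical log axis, TMM-scaled CPM; horizontal axis, the 4 groups). Points are libraries, black lines are group means, and the open triangle marks the H19 count of 0 in Wt 12w replicate 4; Nnat was lower and Dlk1 higher in every Tg7 library than in every Wt library of the same age.

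Igf2 encodes insulin-like growth factor 2, a fetal growth factor that signals through the IGF1 and insulin receptors, and lies at chr7:149836673-149852721 (mm9, minus strand). In Wt islets at 2w it stood at 7.41, 9.20 and 8.40 CPM, and in Tg7 islets at 20.2, 10.5 and 20.4 CPM. At 12w the Wt libraries held 8.31, 5.55 and 5.26 CPM and the Tg7 libraries 14.3, 15.4 and 10.2 CPM. The Tg7 libraries lay above the Wt libraries at both ages without overlap, with Tg7 2w replicate 2 closest to Wt. Igf2 was 2.05-fold higher at 2w (log2 1.03, SE 0.27, adjusted p = 0.0246) and 2.11-fold higher at 12w (log2 1.08, adjusted p = 0.0119). Igf2 was no longer called at 2w when Wt replicate 1 (0.95), 2 (1.10) or 3 (1.04) or Tg7 replicate 1 (0.90) or 3 (0.87) of that age was left out, and the 12w call without Tg7 12w replicate 2 (0.96). Of its exon bases 1.78% overlap the antisense gene Igf2as, and no source used here gives the strand setting of the counting.

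H19 is a long noncoding RNA that shares enhancers with Igf2 and lies 72.6 kb from it, at chr7:149761434-149764048 (mm9, minus strand). At 2w the Wt libraries held 3.68, 3.61 and 2.50 CPM and the Tg7 libraries 23.9, 8.76 and 25.0 CPM. All 3 Tg7 libraries were above all 3 Wt libraries, and Tg7 2w replicate 2 was again the lowest of its group, as it was for Igf2. The difference was 5.91-fold (log2 2.56, SE 0.41, adjusted p = 0.00144). At 12w H19 was close to absent in both genotypes, with 3 counts over the Wt libraries and 9 over the Tg7 libraries, a ratio of 2.00 with a 95% counting interval of 0.499 to 11.5, so that a difference was not detectable at this depth (adjusted p = 0.577). That interval, and the others on counts, cover counting error only.

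The insulin gene Ins2, entered here under the paternally expressed genes, lies 11.8 kb from Igf2. The parental copy it is expressed from in islets was not measured. Ins2 was 5.63-fold lower in Tg7 islets at 2w (log2 −2.49, adjusted p = 9.39e-04) and 3.27-fold lower at 12w (log2 −1.71, adjusted p = 0.00402). Of these close neighbours, Igf2 was higher and Ins2 lower at both ages. In bulk islets, fewer cells of a type and less RNA per cell cannot be told apart. The summed level of 8 β-cell markers ranged from 44900 to 66669 CPM in Wt and from 17864 to 30784 CPM in Tg7 at 2w, and from 72105 to 170519 CPM against 31208 to 34531 CPM at 12w, with 6 and 7 of the 8 called lower.

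Dlk1 encodes a transmembrane protein of the Notch ligand type that is abundant in fetal and progenitor tissue, and lies at chr12:110691033-110701546 (mm9, plus strand). Wt islets held 30.0, 51.9 and 49.9 CPM at 2w, against 83.8, 54.8 and 91.5 CPM in Tg7 islets. By 12w the Wt libraries were at 21.9, 10.2 and 13.7 CPM and the Tg7 libraries at 129, 172 and 138 CPM. The groups did not overlap at either age, narrowly so at 2w and by a wide gap at 12w. At 2w the log2 fold change of 0.81 (SE 0.26, adjusted p = 0.0656) did not pass the test, although it did with DESeq2 (0.81, adjusted p = 0.0267), library size alone (0.97), no filter (0.80) and the 2w groups alone (0.81), without Tg7 2w replicate 2 (0.99) and without Wt 12w replicate 1 (0.80), 2 (0.80) or 4 (0.80). At 12w Dlk1 was 9.70-fold higher in Tg7 islets (log2 3.28, SE 0.29, adjusted p = 4.87e-06). The Tg7 effect itself differed between the ages by 2.47 (SE 0.38, adjusted p = 0.00651), the single call of this kind among the 10 genes, against 1.18% of all genes, 0.871% in the higher and 0.307% in the lower direction.

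Meg3, a long noncoding RNA of the maternal chromosome, starts 77.7 kb from the end of Dlk1 and lies at chr12:110779211-110809936 (mm9, plus strand). It was among the most abundant of the genes, at 2056, 2500 and 2675 CPM in Wt and 1645, 2317 and 1902 CPM in Tg7 at 2w, and at 3332, 3145 and 748 CPM in Wt and 2803, 2897 and 2901 CPM in Tg7 at 12w. The genotypes overlapped at both ages, and Wt 12w replicate 4 lay far below every other library. Neither difference passed the test (log2 −0.30, SE 0.37, adjusted p = 0.656 at 2w; 0.25, SE 0.37, adjusted p = 0.684 at 12w), and the 12w value was −0.17 without Wt 12w replicate 4. Rian and Mirg, maternally expressed noncoding RNAs downstream of Meg3, were not called either, with log2 fold changes of −0.31 and −0.28 at 2w and 0.26 and −0.22 at 12w. In Wt 12w replicate 4 Mirg was at 47.9 CPM against 121 and 128 CPM in the other Wt 12w libraries, whereas Rian was at 803 CPM against 855 and 1151 CPM. Without that library Mirg was called lower at 12w (−0.56).

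Stromal markers differed along with Dlk1, Igf2 and H19. The summed level of 10 stellate cell and fibroblast markers was 342 to 492 CPM in Wt and 535 to 691 CPM in Tg7 at 2w, and 84.3 to 151 CPM against 372 to 387 CPM at 12w, with 6 and 9 of the 10 called higher and 5 called for the difference between ages. Endothelial markers summed to 321 to 407 CPM in Wt and 648 to 705 CPM in Tg7 at 12w, with 5 of 6 called higher and none at 2w. The sum of 5 mesothelial markers went the other way, at 91.7 to 133 CPM in Wt and 28.0 to 38.0 CPM in Tg7 at 2w. At 12w these sums were 34.6 to 56.2 CPM against 1.16 to 1.71 CPM. Of the 5 mesothelial markers only 1 passed the filter on low counts, and it was called lower at both ages. The sums therefore rest mainly on 1 gene and cannot stand for a cell type. Of the other islet and pancreatic markers, 0 of 5 α-cell, 0 of 4 δ-cell, 1 of 2 PP-cell, 0 of 5 macrophage, 0 of 4 Schwann cell, 0 of 3 ductal and 1 of 6 acinar genes were called at 2w, and 1, 0, 0, 1, 1, 1 and 0 at 12w. Proliferation markers summed to 202, 60.7 and 164 CPM in Tg7 2w replicates 1, 2 and 3 and to 57.2 to 109 CPM in Wt 2w, and none of the 5 was called between genotypes at 2w. Replicate 2 was the lowest of the Tg7 2w libraries here, as it was for H19, Igf2 and Dlk1. It was also the lowest of them for the stellate cell and fibroblast sum (535 CPM). For other sums it was the highest, among them those of β-cell (30784 CPM) and α-cell markers (77266 CPM). The part of these cells and of proliferation in the levels of Dlk1, Igf2 and H19 was not tested.

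Nnat encodes neuronatin, a small membrane protein of the endoplasmic reticulum that is known to take part in insulin secretion by β-cells. It lies at chr2:157385814-157388258 (mm9, plus strand), within an intron of the maternally expressed gene Blcap on the opposite strand, with no shared exon bases. In Wt islets at 2w its levels were 60.9, 107 and 92.7 CPM, and in Tg7 islets 12.3, 9.80 and 3.82 CPM. At 12w they were 30.5, 15.9 and 17.3 CPM in Wt and 5.80, 5.75 and 4.97 CPM in Tg7. Every Tg7 library lay below every Wt library of either age. Nnat was 10.1-fold lower in Tg7 islets at 2w (log2 −3.33, SE 0.37, adjusted p = 8.41e-05), where its fold was the highest of the 10, and 3.81-fold lower at 12w (log2 −1.93, SE 0.37, adjusted p = 0.00187). The effects at the 2 ages differed by 1.40 (SE 0.50, adjusted p = 0.217), which did not pass the test. Markers of β-cells were lower in the same libraries, as given above, and their part in the Nnat level was not tested. The host gene Blcap was lower in Tg7 islets at 2w (log2 −0.75, adjusted p = 7.24e-04) but not called at 12w (0.07, adjusted p = 0.702), where library size alone gave a call higher (0.51).

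Nnat and Dlk1 were the members with the highest folds between the genotypes, and their promoter windows of 300 bases, from 250 before to 50 after the start, are printed from RefSeq (GRCm38.p6, both on the plus strand) at chr2:157559828-157560127 and chr12:109452573-109452872. Capitals mark the hexamer TGCCGC or its reverse complement GCGGCA, the letters known to be bound, when methylated, by ZFP57, a zinc finger protein that maintains imprints.

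Nnat: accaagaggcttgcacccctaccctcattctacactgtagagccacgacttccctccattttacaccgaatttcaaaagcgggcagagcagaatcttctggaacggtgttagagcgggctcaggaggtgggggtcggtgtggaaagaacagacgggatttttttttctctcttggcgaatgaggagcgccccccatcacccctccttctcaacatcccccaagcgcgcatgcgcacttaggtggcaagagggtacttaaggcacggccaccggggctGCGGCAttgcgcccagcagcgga
Dlk1: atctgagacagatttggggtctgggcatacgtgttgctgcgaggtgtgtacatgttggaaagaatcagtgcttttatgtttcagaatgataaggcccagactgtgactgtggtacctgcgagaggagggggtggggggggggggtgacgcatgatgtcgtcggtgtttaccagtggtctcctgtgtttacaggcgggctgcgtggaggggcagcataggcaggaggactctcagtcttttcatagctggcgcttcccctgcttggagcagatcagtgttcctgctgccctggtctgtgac

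The Nnat window holds the hexamer 1 time and the Dlk1 window 0 times. Of the 10 genes, 8 had at least 1 window in the table (15 windows), H19 and Cdkn1c having no entry, and 6 of the 8 held the hexamer in 7 windows, 2 of which overlap at Mest. Of 32851 promoter windows of the same length, 11.6% held the hexamer. This share is per window and not per gene, and the windows were not matched for GC content.

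**Figure D2:**
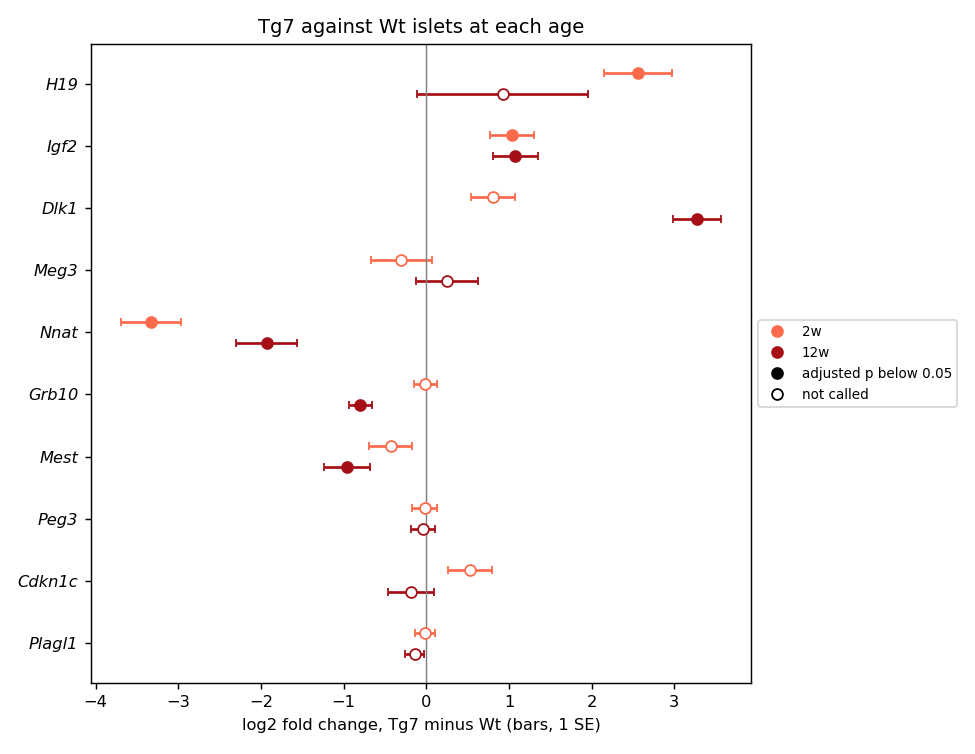
Log2 fold change of each imprinted gene between Tg7 and Wt islets (horizontal axis; right of 0, higher in Tg7) at 2w and 12w, with bars of 1 SE from edgeR. Filled points are called at an adjusted p below 0.05: H19, Igf2 and Nnat at 2w, and Dlk1, Igf2, Nnat, Grb10 and Mest at 12w, of which Grb10 and Mest were not called when scaled by library size alone.

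Grb10 encodes an adaptor that binds the insulin and IGF1 receptors and limits their signalling, and lies at chr11:11830511-11938686 (mm9, minus strand). At 2w its levels were 200, 192 and 164 CPM in Wt and 168, 190 and 194 CPM in Tg7, and at 12w 87.4, 73.1 and 104 CPM in Wt and 47.6, 50.1 and 54.0 CPM in Tg7. The genotypes overlapped at 2w, and at 12w every Tg7 library was below every Wt library. The log2 fold change was −0.01 (SE 0.14, adjusted p = 0.966) at 2w and −0.80 (SE 0.14, adjusted p = 0.00103), or 1.74-fold lower, at 12w. The difference between the ages, −0.79 (SE 0.20), did not pass the test (adjusted p = 0.0746), but it did with DESeq2 (−0.80, adjusted p = 0.00941) and without Wt 12w replicate 2 (−0.90) or 4 (−0.64). Scaling by library size alone, which moved the median of all genes at 12w by 0.44, gave −0.36 for Grb10 at 12w (adjusted p = 0.113). Of the miR-7 seed matches printed above, 1 lies in Grb10 and 3 lie in Meg3. A part of miR-7 in the Grb10 level was not tested.

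Ddc, which adjoins Grb10 and is paternally expressed in some tissues although it was entered here under the maternally expressed genes, was lower in Tg7 islets at 2w (log2 −0.78, adjusted p = 0.00113) and at 12w (−0.37, adjusted p = 0.0412), the latter call being lost without any 1 of 9 libraries and turning to 0.07 with library size alone.

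Mest encodes a membrane protein of the α/β-hydrolase fold that marks growing mesodermal and adipose tissue, and lies at chr6:30673547-30698457 (mm9, plus strand). Its levels were 21.0, 16.9 and 25.9 CPM in Wt and 15.6, 16.0 and 15.6 CPM in Tg7 at 2w, and 20.2, 14.3 and 8.06 CPM in Wt and 8.45, 5.75 and 7.43 CPM in Tg7 at 12w. The 2w groups did not overlap, whereas at 12w the lowest Wt library lay below the highest Tg7 library. The 12w difference was called (log2 −0.96, SE 0.28, adjusted p = 0.0236) and the 2w difference was not (−0.43, SE 0.27, adjusted p = 0.321). Dropping Wt replicate 1 (−0.65) or Tg7 replicate 2 (−0.81) or 3 (−0.98) of 12w ended this call, and so did library size alone (−0.47) and a fit of the 12w groups alone (−0.99). Of the exon bases of Mest, 23.0% overlap Copg2 on the opposite strand, whose log2 fold changes were −0.24 and −0.28 and not called, and reads in the overlap cannot be told apart.

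Cdkn1c encodes the cyclin-dependent kinase inhibitor p57, which restrains cell division in β-cells, and lies on the same chromosome as Igf2 and H19 at chr7:150644255-150646955 (mm9, minus strand). Wt islets held 3.85, 3.75 and 3.14 CPM at 2w and 2.39, 2.94 and 1.87 CPM at 12w, and Tg7 islets 5.43, 4.80 and 5.26 CPM and then 2.31, 1.99 and 2.00 CPM. At 2w the Tg7 libraries were all above the Wt libraries, but the log2 fold change of 0.53 (SE 0.26, adjusted p = 0.216) did not pass the test. At 12w the groups overlapped (−0.19, SE 0.28, adjusted p = 0.693).

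The zinc finger genes Peg3 and Plagl1 were not called between genotypes at either age. Peg3, at chr7:6656603-6683132 (mm9, minus strand), ranged from 1637 to 2189 CPM in Wt and from 1762 to 1942 CPM in Tg7 at 2w, and from 1024 to 1326 CPM against 1098 to 1263 CPM at 12w. Its log2 fold changes were −0.02 (SE 0.15) and −0.04 (SE 0.15). Plagl1, at chr10:12810497-12851500 (mm9, plus strand), ranged only from 46.3 to 64.6 CPM over the 12 libraries, with log2 fold changes of −0.02 (SE 0.12) and −0.14 (SE 0.12). The Tg7 and Wt ranges overlapped for both genes at both ages, and the signs of these small values turned with library size alone (0.14 and 0.42 for Peg3, 0.15 and 0.32 for Plagl1).

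Between 2w and 12w, Dlk1, Grb10, Peg3 and Nnat fell in Wt islets, and none of the 10 genes rose. In Tg7 islets Grb10, Cdkn1c, Peg3 and Mest fell, and Dlk1 rose. H19 was also called lower in both, which makes 5 of the 10 genes lower in each genotype. It passed the filter on low counts only through its 2w libraries, so its calls are no support for a fall of the group. The medians below include it. Over all genes 15.8% were called in Wt, 7.90% higher and 7.91% lower at 12w, and in Tg7 7.02% were higher and 6.01% lower. The median log2 change of the 10 genes was −0.62 in Wt and −0.65 in Tg7, where the medians over all genes were 0.04 and −0.01. Scaling by library size alone moved the median of all genes by −0.39 in Wt and −0.12 in Tg7. With it 8 of the 10 genes, H19 included, were called in Wt, Igf2 (−0.82), Cdkn1c (−0.97) and Mest (−1.04) being added.

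**Figure D3:**
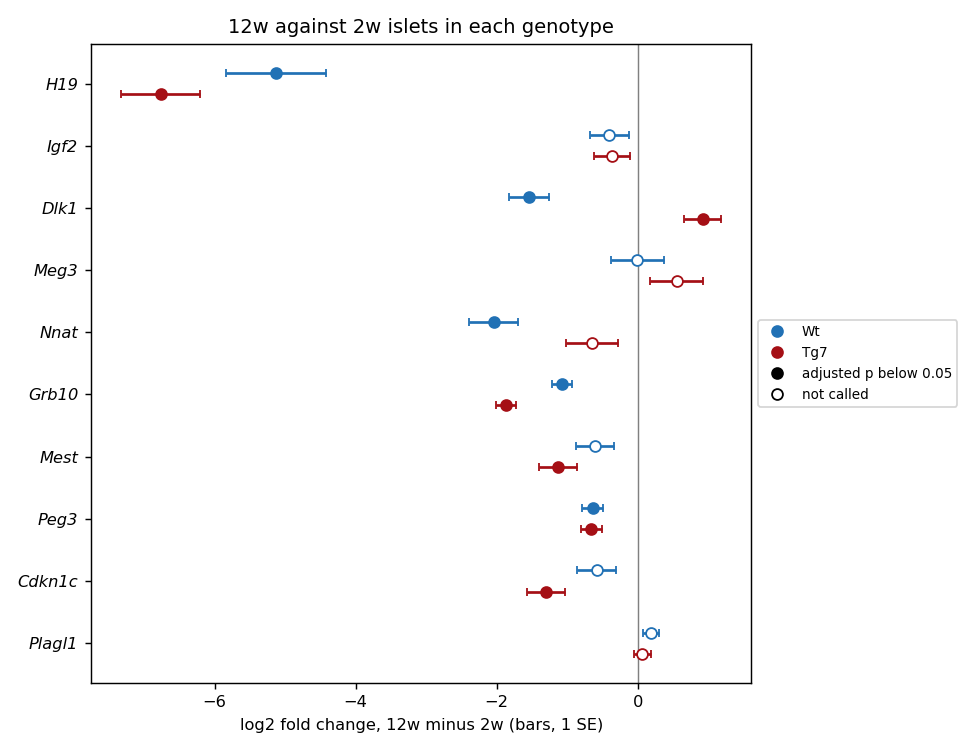
Log2 fold change of each imprinted gene between 12w and 2w islets (horizontal axis; left of 0, lower at 12w) in Wt and in Tg7, with bars of 1 SE from edgeR and filled points for adjusted p below 0.05. H19 had changes of −5.13 and −6.77, and Dlk1 fell in Wt and rose in Tg7, the latter not called with library size alone.

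Because of this filter, the calls and adjusted p values of H19 with age are given as a description and not as a test. In Wt islets its counts went from 158 over the 2w libraries to 3 over the 12w libraries, 38.0-fold lower in CPM with a 95% counting interval of 12.8 to 186 (log2 −5.13, SE 0.70, adjusted p = 3.04e-04). Dropping Wt 12w replicate 4 changed this log2 value to −4.41, and dropping replicate 2 of that group to −5.97. In Tg7 islets, where H19 started higher, the log2 change was −6.77 (SE 0.56, adjusted p = 9.72e-06). The Tg7 effects on H19 at the 2 ages differed by −1.64 (SE 1.35, adjusted p = 0.638), which did not pass the test. Igf2 did not follow H19, with changes of −0.40 in Wt (SE 0.28, adjusted p = 0.343) and −0.36 in Tg7 (SE 0.26, adjusted p = 0.395) that were not called.

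Dlk1 changed in opposite directions. It fell by 1.54 on the log2 scale in Wt islets (SE 0.28, adjusted p = 0.00234) and rose 1.90-fold in Tg7 islets (log2 0.93, SE 0.26, adjusted p = 0.0324). The fall held in every alternative run. The rise in Tg7 was not called with library size alone (0.80) or without Tg7 2w replicate 1 (0.99) or 2 (0.74) or Tg7 12w replicate 1 (1.01), 2 (0.80) or 3 (0.97).

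Grb10 fell 2.11-fold in Wt (log2 −1.08, SE 0.14, adjusted p = 1.90e-04) and 3.64-fold in Tg7 (log2 −1.86, SE 0.14, adjusted p = 5.60e-06). Peg3 fell by nearly the same amount in both genotypes, by 0.64 in Wt (SE 0.15, adjusted p = 0.0104) and by 0.66 in Tg7 (SE 0.15, adjusted p = 0.00988) on the log2 scale. The Peg3 calls were lost without Wt 2w replicate 2 or with the Wt groups alone (−0.53 and −0.67 in Wt) and without Tg7 12w replicate 1 (−0.61 in Tg7).

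Nnat fell 4.12-fold in Wt islets (log2 −2.04, SE 0.35, adjusted p = 0.00144). In Tg7 islets, where it was already low at 2w, its change was −0.64 (SE 0.37, adjusted p = 0.277) and was not called. Cdkn1c and Mest fell in Tg7 islets, by 1.30 (SE 0.27, adjusted p = 0.00622) and 1.13 (SE 0.27, adjusted p = 0.0148) on the log2 scale, and had changes of −0.58 (adjusted p = 0.173) and −0.60 (adjusted p = 0.146) in Wt. Mest was not called in Tg7 without Tg7 12w replicate 2 (−0.99) or 3 (−1.15), and it was called in Wt without Wt 12w replicate 1 (−0.92). None of these 3 genes passed the test of whether the change with age differed between the genotypes. A call in a single genotype therefore does not show that the changes differ.

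Meg3 and Plagl1 were not called with age. The Meg3 change in Wt was 0.00 (SE 0.37), or 0.42 without Wt 12w replicate 4 (adjusted p = 0.0624), and in Tg7 it was 0.55 (SE 0.37, adjusted p = 0.364), which was called without that Wt library (0.55, adjusted p = 0.0133) and with the Tg7 groups alone (0.54). Plagl1 changed by 0.19 (SE 0.12) and 0.07 (SE 0.12).

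Proliferation markers fell over the same interval, from 57.2 to 109 CPM in Wt 2w to 15.7 to 28.7 CPM in Wt 12w, and from 60.7 to 202 CPM to 25.0 to 28.2 CPM in Tg7, with 5 of 5 called lower in both genotypes and none between genotypes. The stellate cell and fibroblast sum also fell, with 7 of 10 called in Wt and 5 of 10 in Tg7. The mesothelial sum, which rests mainly on the 1 gene of 5 that was tested, was 91.7 to 133 CPM in Wt 2w and 34.6 to 56.2 CPM in Wt 12w. In Tg7 this sum went from 28.0 to 38.0 CPM at 2w to 1.16 to 1.71 CPM at 12w. The 1 tested was called lower at 12w in both genotypes. The part of cell makeup in the changes of the imprinted genes with age was not tested.

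Compared per kilobase of annotated exon, Peg3 and Meg3 stood highest in every group, with means of 143 ± 20.8 and 133 ± 17.6 CPM per kb (SD, n = 3) in Wt islets at 2w, a gap within their spread. Nnat came next in Wt at 2w (47.4), followed by Grb10 (20.3), Dlk1 (7.76), Plagl1 (6.74), Mest (5.40), Cdkn1c (1.85), Igf2 (1.52) and H19 (1.37). The order was rearranged in Tg7 islets at 12w, where Dlk1 was next after Meg3 and Peg3 at 25.8 CPM per kb, above Plagl1 (6.99), Grb10 (5.51) and Nnat (3.01), and H19 was lowest at 0.071. In Wt islets at 12w Dlk1 was at 2.70 and Nnat at 11.6 CPM per kb.

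Of 56 other imprinted genes listed from general knowledge, 52 were in the table and 41 were tested, 22 maternally and 19 paternally expressed. In Tg7 islets 3 were called higher and 7 lower at 2w, and 9 higher and 9 lower at 12w, where 10.6% and 23.6% of all genes were called. The parental copy is that entered in the list, with Ins2 among the paternally expressed genes, and was not measured in islets. By this entry, 2 maternally expressed genes were higher and 4 lower at 2w, and 4 higher and 3 lower at 12w. The paternally expressed genes gave 1 higher and 3 lower at 2w, and 5 higher and 6 lower at 12w. Maternally expressed genes had a median log2 fold change of −0.18 (2w) and 0.01 (12w), and paternally expressed genes of 0.03 and −0.30. Leaving out Wt replicate 3 of 2w gave 6 calls at 2w, and leaving out Tg7 replicate 1, 2 or 3 of 12w gave 11 at 12w each time.

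The listed genes fixed by name as neighbours of the 10 were read beside them, and Tssc4 and Nap1l4 of distal chromosome 7 were added after their values had been seen. On distal chromosome 7, Cd81, a tetraspanin of the cell surface, was higher in Tg7 islets at 2w (log2 0.64, adjusted p = 0.0194) and 12w (1.66, adjusted p = 1.01e-05), and its effect was larger at 12w by 1.02 (adjusted p = 0.0436). Tnfrsf23, a decoy receptor, was lower at both ages (−1.30, adjusted p = 0.00607, and −1.14, adjusted p = 0.00543), the 12w call being lost with library size alone (−0.68). Tssc4, between Cd81 and Kcnq1, was lower at 2w (−0.86, adjusted p = 0.00779) and not called at 12w (−0.37, adjusted p = 0.156), and Nap1l4 was not called at either age (−0.18 and 0.10). For Slc22a18 the 2w value was 1.40 (log2, adjusted p = 0.0539), with Tg7 2w replicate 3 at 103 CPM and the other Tg7 2w libraries at 25.8 and 40.1 CPM, and −0.17 at 12w. Dropping that replicate 3 lowered the 2w value to 0.62, and Slc22a18 was called in 6 of the 20 alternatives, among them those without Tg7 2w replicate 1 (1.75) and without Wt 12w replicate 1 (1.39) or 4 (1.40). Kcnq1 and Osbpl5 were not called at either age, although Osbpl5 was called higher at 12w without Wt 12w replicate 4 (0.44). Usp29 and Zim1, which lie near Peg3 elsewhere on chromosome 7, were not called at either age. Cd81 was no longer called at 2w once any 1 of the 3 Wt libraries of that age (0.59, 0.62 and 0.70) or Tg7 replicate 2 (0.53) was dropped.

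**Figure D4:**
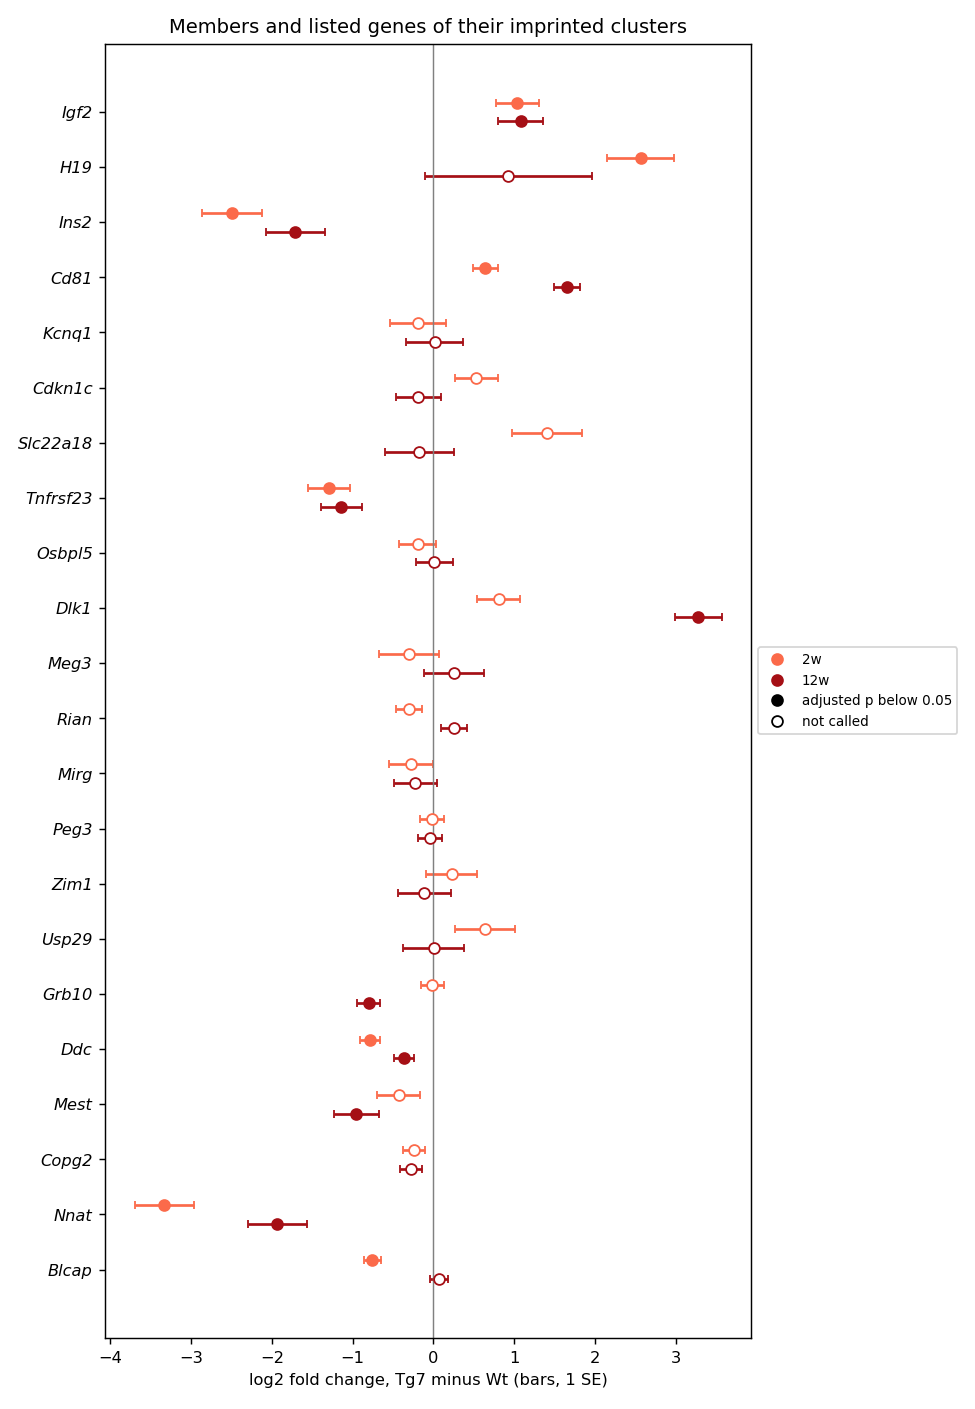
Log2 fold change between Tg7 and Wt islets at 2w and 12w (horizontal axis) for 9 of the 10 imprinted genes and for 13 listed genes of their clusters, with bars of 1 SE and filled points for adjusted p below 0.05. Neighbours moved in different directions: Igf2 was higher and Ins2 lower at both ages, and Dlk1 was called at 12w whereas Meg3, Rian and Mirg were not; with library size alone Rian was called higher at 12w (0.70) and the small values of Mirg, Slc22a18, Zim1, Copg2 and Ddc at 12w turned positive.

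Beyond these clusters, the genes with the highest folds were named by rule. Dcn, a matrix proteoglycan imprinted in placenta, was 2.98-fold higher at 2w (log2 1.58, adjusted p = 0.0181) and 11.7-fold higher at 12w (log2 3.55, adjusted p = 4.44e-05). It is a gene of fibroblasts, whose markers were higher in the same libraries, and their part in the Dcn level was not tested. At 2w Dcn was not called without Wt 2w replicate 2 (1.48) or 3 (1.37) or without Tg7 2w replicate 1, which lowered its value to 0.97. Nap1l5 was higher by 0.87 (adjusted p = 0.0105) and 1.26 (adjusted p = 3.64e-04), the 2w call being lost without Wt 2w replicate 3 (0.77). Mkrn3 had 63 counts in Tg7 and 1 count in Wt libraries at 12w, a ratio of 42.0 with a counting interval of 7.27 to 1685. The Wt libraries had held 54 Mkrn3 counts at 2w, so the ratio rests on a near-absent level in Wt at 12w. Nespas was higher by 1.40 at 12w (adjusted p = 0.0413), a call lost in 11 of the 19 alternatives.

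Among the genes lower in Tg7 islets, Rasgrf1, a Ras exchange factor of neurons and β-cells, was lower at 2w (log2 −0.82, adjusted p = 0.00195) and at 12w (−1.25, adjusted p = 3.04e-05). The amino acid transporter gene Slc38a4 was lower at 12w (−1.29, adjusted p = 4.02e-04), and Tssc4 was lower at 2w as given above. Zdbf2 was called at 12w (−0.59, adjusted p = 0.0327) with overlapping groups and lost its call in 9 of the 20 alternatives.

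With age, 5 of the 41 rose and 6 fell in Wt islets, against 7.90% and 7.91% of all genes, and 9 rose and 5 fell in Tg7 islets, against 7.02% and 6.01%. Zim1, the neighbour of Peg3 at a distance of 7.44 kb, fell in both genotypes (−1.61, adjusted p = 0.00486, and −1.95, adjusted p = 0.00157), as Peg3 did. Rian fell in Wt islets (−0.53, adjusted p = 0.0381), a call lost in 9 of the 20 alternatives, whereas Meg3 was not called. Cd81 also fell in Wt islets (−0.76, adjusted p = 0.00539). Ins2 rose in Wt (1.47, adjusted p = 0.014) and in Tg7 islets (2.25, adjusted p = 0.00127). In Tg7 islets Ddc (0.56, adjusted p = 0.00747) and Tnfrsf23 (0.82, adjusted p = 0.0496) rose, the latter call being lost in 13 of the 20 alternatives. Blcap, the host of Nnat, rose in Tg7 islets (0.67, adjusted p = 0.0012), and its Tg7 effect differed between the ages by 0.82 (adjusted p = 0.0189).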

How the data were processed

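Total RNA of islets was used for library preparation with an NEB Ultra II kit and for paired-end sequencing. From the submitters' processing notes and the study's methods, the authors used bcl2fastq 2.20.0 (the methods name CASAVA), Trimmomatic, TopHat2 2.0.11 against mm9 (NCBIM37) and featureCounts. The deposited values are raw counts per Ensembl gene, not normalized. The strand setting and the featureCounts version were not given in the sources used here.

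Symbols were paired with 37205 of the 37991 gene IDs. The 10 imprinted genes and all lists were chosen from general knowledge with earlier results of these data known. After filterByExpr (10 counts, 15 in total) and TMM scaling, 4 group means were fitted over the 12 libraries by glmQLFit in edgeR 4.0.16 (R 4.3.3), and contrasts were tested two-sided by glmQLFTest with Benjamini-Hochberg adjustment over the 15961 genes tested. All adjusted p values come from this test unless DESeq2 is named. The SE was taken as the log2 fold change over √F. Contrasts compared Tg7 with Wt within an age, 12w with 2w within a genotype, and the Tg7 effects of the 2 ages. The common biological coefficient of variation was 0.212, and 3 libraries a group limit the precision. Replicates were not duplicates, as their counts differed by 6.91 to 175 times the sampling noise (chi-square per degree of freedom).

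The text names all 10 genes, those tested of the neighbours fixed by name, up to 5 called listed genes in each direction with the highest folds, and 3 genes of most similar pattern for each of the 10. The alternatives were DESeq2 1.42.0, scaling by library size or upper quartile, a filter of 1 count in total or of 50 counts in 3 libraries, fitting only the groups compared, removing the 20 most abundant genes, a replicate block, and dropping single libraries. After the data had been seen, they were also run for the other imprinted genes. Cell type markers were summed as CPM. Gene models and seed matches are from the mm9 annotation. The tests were checked on simulated counts, and plots were drawn with matplotlib 3.10.9.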

Additional observations from a re-analysis of the deposited data

Results flagged for a closer look

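The Tg7 effect on Dlk1 was larger at 12w than at 2w by 2.47 on the log2 scale (SE 0.38, adjusted p = 0.00651, edgeR's quasi-likelihood test of the difference itself). All 3 Tg7 libraries were above all 3 Wt libraries at each age, and the level fell with age in Wt islets and rose in Tg7 islets. Of the 10 stellate cell and fibroblast markers, 5 passed the same test with the same sign, and their part was not tested.

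Among the other imprinted genes, the Tg7 effect differed between the ages by 1.02 for Cd81 (adjusted p = 0.0436) and by 0.82 for Blcap (adjusted p = 0.0189). Cd81 was higher in every Tg7 library than in every Wt library at both ages, whereas Blcap was lower in every Tg7 library at 2w and its groups overlapped at 12w. Cd81 no longer passed when replicate 1, 2 or 3 of Wt 2w, 1 or 3 of Tg7 2w, 1 of Wt 12w, or 1, 2 or 3 of Tg7 12w was dropped (0.96 to 1.07), or with upper-quartile factors (1.04). Blcap no longer passed when replicate 3 of Wt 2w or 1 or 2 of Tg7 12w was dropped (0.79 to 0.84).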

How the results depend on the processing

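With library size alone, 3 imprinted genes were called between genotypes at 12w and 8 with age in Wt. The test of the difference between ages called 2 genes with DESeq2. Leaving out single libraries gave 3 to 5 calls at 12w, with 3 without Tg7 12w replicate 2, and 1 to 2 for the difference between ages, with 2 without Wt 12w replicate 2 or 4. Of 989 alternative log2 fold changes of the 10 genes, 900 kept direction and call, 25 lost the call, 18 gained one and 46 changed sign. Among the other imprinted genes, the 12w and Wt age counts fell from 18 to 11 and from 11 to 5 when only the groups compared were fitted, and the difference between ages called 7 with DESeq2, 7 with library size alone, 5 without the filter and 1 with upper-quartile factors instead of 2. Leaving out single libraries gave 6 to 14 calls at 2w, 11 to 19 at 12w, 6 to 14 in Wt and 7 to 16 in Tg7 with age, and 0 to 3 for the difference. The causes of these changes were not tested. H19 had no 12w value when only those groups were fitted, as it was filtered out.

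Sign changes were of values not called, except Ddc. At 2w, Grb10 turned to 0.16 with library size alone, 0.0441 with upper-quartile factors and 0.0106 with the stricter filter, Peg3 to 0.14, 0.0371 and 0.0034, and Plagl1 to 0.15, 0.04 and 0.0064. At 12w, library size alone gave 0.26 for Cdkn1c, 0.42 for Peg3, 0.32 for Plagl1, 0.26 for Mirg, 0.31 for Slc22a18, 0.31 for Zim1, 0.16 for Copg2 and 0.0673 for Ddc, and upper-quartile factors gave 0.0392 for Peg3. With the 12w groups alone Kcnq1 was −0.0168, Osbpl5 −0.0103 and Usp29 −0.0198. Usp29 was −0.0086 with DESeq2, and without the 20 most abundant genes Osbpl5 was −6e-04 and Usp29 −0.0064. The Meg3 change with age in Wt was 0.0063 with DESeq2, 0.0028 with the stricter filter and 0.0028 without the 20 most abundant genes. Plagl1 changed with age by −0.22 in Wt and −0.0517 in Tg7 with library size alone. The difference between ages was 0.28 for Peg3 and 0.17 for Plagl1 with library size alone, and 0.0021 for Peg3 with upper-quartile factors.

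Leaving out single libraries gave, at 2w, −0.099 to 0.0521 for Grb10, −0.12 to 0.0902 for Peg3 and −0.0565 to 0.0117 for Plagl1, and at 12w −0.17 to 0.54 for Meg3, −0.15 to 0.0295 for Peg3, −0.56 to 0.0147 for Mirg, −0.26 to 0.44 for Kcnq1, −0.42 to 0.11 for Slc22a18, −0.23 to 0.44 for Osbpl5, −0.31 to 0.30 for Usp29 and −0.51 to 0.35 for Zim1. It gave −0.30 to 0.42 for Meg3 with age in Wt, and −0.20 to 0.24 for Igf2 and −0.13 to 0.0803 for Peg3 in the difference between ages.

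Same-numbered Tg7 and Wt libraries did not deviate together from their group means (correlations −0.0214, −0.167 and −0.0343 at 2w, −0.0894 and −0.0112 at 12w). The labels give them only a shared number. With 3 libraries a group, these values cannot show whether same-numbered pools shared litters or a day of preparation. With the replicate block 3, 4, 5, 7 and 0 imprinted genes were called at 2w, at 12w, with age in Wt and in Tg7, and for the difference between ages, against 3, 5, 5, 6 and 1 without it. The Dlk1 difference was then 2.48 (adjusted p = 0.0547) and Igf2 at 12w 1.13 (adjusted p = 0.0541). Meg3 was −0.18 at 12w and 0.46 with age in Wt, Kcnq1 −0.42 and Zim1 0.31 at 12w. Meg3 was then called with age in Tg7 (0.56, adjusted p = 0.0145) and Mirg at 12w (−0.65, adjusted p = 0.0136), and Cd81 (0.86, adjusted p = 0.0836) and Blcap (0.93, adjusted p = 0.0559) no longer passed for the difference between ages.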

Other observations

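The genes with the pattern most like each imprinted gene were taken by Pearson's r of log2 CPM over the 12 libraries, 3 for each. They were Marcksl1 (0.97), Nt5dc2 and Zbtb7c for H19, Ptgis (0.958), Ninl and Tspan4 for Igf2, and Cep70 (0.968), Slc16a1 and Parm1 for Dlk1. Meg3 was followed by Fam116b (0.969), Dnhd1 and Fam193b, Grb10 by Fam101b (0.969), Fam126a and St8sia1, and Cdkn1c by Tmsb15l (0.959), Aard and Edn3. For Peg3 they were Gm98 (0.965), Hdac6 and Nisch, for Plagl1 Copz1 (0.929), Hbxip and Bola3, for Mest Spag4 (0.992), Nr6a1 and Cpsf6, and for Nnat Ceacam10 (0.959), Naa20 and Trmt61a. The value after the first gene of each group is its r. The 12 libraries fall into the 4 groups and the genes of a library share its depth and scaling, so these values describe likeness over the groups and carry no test.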
